A study of Mus musculus with 15 samples.

Results

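The 46 keratin genes described here are all gene symbols in the expression files that begin with Krt followed by a digit, apart from the wound and stress keratins *Krt6a*, *Krt6b*, *Krt16* and *Krt17*, out of 21110 genes in all. They were divided by the place where each keratin is known to be made. There were 3 basal keratins of the interfollicular epidermis, 5 suprabasal ones, 5 keratins of simple epithelia, 7 of the inner root sheath of the hair follicle, 1 of the companion layer, 14 hair keratins and 11 others. RNA-Seq of ears was compared between wild-type (WT) C57BL/6 animals and a conditional *Socs3* knockout on that background (*Socs3* cKO), which is specific to cells that use the keratin 5 gene, that is basal keratinocytes and their descendants. The data held 4 WT and 4 *Socs3* cKO samples at 2 weeks of age, and 3 WT and 4 *Socs3* cKO samples at 10 weeks, 15 in all, and the labels name no further treatment. The labels name keratinocytes as the source and ear as the tissue, and the methods describe RNA taken from ear samples. Each value is an FPKM (fragments per kilobase of transcript, scaled to the mapped reads of the sample), so levels can be compared between genes of different length. The number of reads behind a value is not known from these files, and an exact 0 is given below as listed at 0.

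Keratins are the intermediate filament proteins of epithelial cells. Each filament pairs an acidic type I keratin with a basic type II keratin, and the partners change as a cell matures: *Krt5* with *Krt14* in dividing basal cells of the epidermis, then *Krt1* and *Krt2* with *Krt10* in the layers above. Hair follicles make their own sets, one in the inner root sheath that moulds the growing hair, one in the companion layer next to it, and the sulphur-rich hair keratins in the hair shaft itself. Follicles pass through cycles of growth and rest, and the sheath and hair keratins are products of the growing follicle.

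The genes lie in 2 clusters. In the mouse genome build mm9, 25 members lie on chromosome 11 within 1.04 Mb and 21 on chromosome 15 within 0.68 Mb. The first holds the type I genes and the second the type II genes together with *Krt18*, a type I gene. Genes of different compartments are close neighbours. *Krt25* (chr11:99176830-99184265), *Krt26*, *Krt27* and *Krt28* (chr11:99226186-99236217) of the inner root sheath are followed, 10.3 kb further on, by *Krt10* (chr11:99246568-99250678). *Krt71* (chr15:101564381-101573540), the most abundant sheath keratin in WT at 2 weeks, begins 21.1 kb after *Krt5* (chr15:101537501-101543322) ends. *Krt2* (chr15:101641120-101648600) starts 8.3 kb after the sheath gene *Krt73*.

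Upstream sequences of the sheath and suprabasal keratins are shown because, at 2 weeks, the inner root sheath was the compartment of several genes with the largest share of members called, 7 of 7, and the suprabasal layer the one with the smallest, 1 of 5. They are the 250 bases before the annotated start of transcription, from RefSeq on build GRCm38.p6, read on the strand of the gene. All 5 genes lie on the minus strand. Capitals mark the motifs TATAAA, the core of the TATA box, AGATAA, a core bound by GATA factors, and CTTTGA, a core bound by LEF/TCF factors, on either strand.
Krt71 (chr15:101743098-101743347): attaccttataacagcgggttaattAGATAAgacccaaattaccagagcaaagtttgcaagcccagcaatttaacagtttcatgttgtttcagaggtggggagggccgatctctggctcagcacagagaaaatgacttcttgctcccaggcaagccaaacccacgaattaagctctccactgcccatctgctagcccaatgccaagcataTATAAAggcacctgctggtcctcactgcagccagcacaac
Krt25 (chr11:99322952-99323201): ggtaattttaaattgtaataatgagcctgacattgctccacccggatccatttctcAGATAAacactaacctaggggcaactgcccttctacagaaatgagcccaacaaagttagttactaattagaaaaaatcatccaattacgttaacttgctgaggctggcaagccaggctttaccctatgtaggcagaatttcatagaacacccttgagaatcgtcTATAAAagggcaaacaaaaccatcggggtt
Krt27 (chr11:99351119-99351368): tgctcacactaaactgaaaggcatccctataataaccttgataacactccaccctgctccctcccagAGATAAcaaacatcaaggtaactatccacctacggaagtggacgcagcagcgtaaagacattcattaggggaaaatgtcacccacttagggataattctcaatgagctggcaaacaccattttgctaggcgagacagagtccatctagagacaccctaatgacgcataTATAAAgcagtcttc
Krt10 (chr11:99389365-99389614): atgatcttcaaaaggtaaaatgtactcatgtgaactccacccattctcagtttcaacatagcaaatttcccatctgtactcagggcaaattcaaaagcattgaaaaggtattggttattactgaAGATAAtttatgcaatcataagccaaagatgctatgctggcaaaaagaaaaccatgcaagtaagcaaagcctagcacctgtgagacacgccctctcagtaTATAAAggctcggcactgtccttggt
Krt2 (chr15:101818170-101818419): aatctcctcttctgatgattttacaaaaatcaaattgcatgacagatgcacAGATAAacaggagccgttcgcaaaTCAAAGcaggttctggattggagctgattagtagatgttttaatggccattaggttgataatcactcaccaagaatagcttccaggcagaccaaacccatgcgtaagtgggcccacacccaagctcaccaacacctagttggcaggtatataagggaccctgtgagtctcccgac
The TATAAA motif began 40 bases before the start of *Krt71*, 30 before that of *Krt25*, 15 before that of *Krt27* and 26 before that of *Krt10*. Over the window of 300 bases that also takes in 50 bases after the start, it was found in all 6 inner root sheath keratins with an entry and in 6 of 9 hair keratins, against 13.6% of all 32851 promoters of the same length. It was found in 1 of 4 suprabasal keratins and in neither of the 2 basal keratins with an entry. AGATAA was present in 4 of 6 sheath keratins, 2 of 4 suprabasal and 2 of 4 simple keratins and in none of 9 hair keratins, against 11.2% of all promoters. CTTTGA was present in 5 of 9 hair keratins and 1 of 6 sheath keratins, against 16% of all promoters. The AP-1 motif TGANTCA was found in 1 of the 34 keratin promoters, against 7.81% of all. A match describes these letters only, and factor binding was not measured.

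Some keratins are so alike that a read of 50 bases can come from more than one of them. The mm9 transcripts of 26 members share no stretch of 50 bases with another gene, while 10 share more than 10% of theirs. The most alike were *Krt86*, with 43.3% of its stretches shared, and *Krt81*, with 43.2%. *Krt83* shared 21.4%. The sheath genes *Krt25* and *Krt27* shared 10.9% and 11.1%, with each other and with *Krt28* and, for *Krt25*, also with *Krt15*. *Krt14* shared 14.4% with *Krt16* and *Krt17*, and *Krt5* shared 8.55% with *Krt6a*, *Krt6b* and *Gm5414*. A stretch of the coding sequence that the 3 hair keratins hold in identical form is shown to make this visible, from base 62 of the coding sequence of *Krt81* and *Krt86* and base 77 of *Krt83*.
shared by Krt81, Krt83 and Krt86: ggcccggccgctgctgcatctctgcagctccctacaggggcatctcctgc
The next 50 bases differ at 6 positions, marked in capitals.
Krt81: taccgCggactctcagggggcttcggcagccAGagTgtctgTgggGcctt
Krt83: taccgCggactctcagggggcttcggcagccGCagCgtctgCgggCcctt
Krt86: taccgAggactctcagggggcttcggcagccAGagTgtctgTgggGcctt
Reads from the first stretch cannot be assigned to one gene, so the values of these 3 genes, and of the type I hair keratins *Krt31*, *Krt33a*, *Krt33b* and *Krt34*, are uncertain in how they divide among the near copies.

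Facts of the samples bear on what follows. *Socs3* itself was 9.71, 10.2, 10.3 and 10.3 FPKM in WT at 2 weeks and 1.25, 9.32, 12.6 and 3.51 in *Socs3* cKO, a difference not called by limma (adjusted p = 0.18). At 10 weeks it was 2.76, 4.81 and 2.02 in WT and higher, at 36.5, 29.8, 47.7 and 32.4, in *Socs3* cKO, against the direction of the label. One FPKM per gene cannot tell reads of the removed region from reads of other regions. Non-keratin keratinocyte markers (10 genes) summed to between 1381 and 3277 FPKM over the 15 samples, but markers of other cell types were also present. The 5 fibroblast markers summed to 3166 to 9862 FPKM and the 7 skeletal muscle markers to 359 to 2895, so the RNA did not come from keratinocytes alone. In bulk RNA, fewer cells of a type and less RNA per cell cannot be told apart. *Socs3* cKO replicate 1 at 2 weeks stood apart from its group. Its mean correlation with the other 3 samples was 0.88, against 0.909 to 0.93 for those. Its deviations from the group mean correlated with the GC content of the genes at -0.605, against 0.33, 0.502 and 0.403 in replicates 2, 3 and 4. These correlations are not independent of each other, because the samples share the group mean. For several keratins the result without this replicate is also given. The sample titles carry a code, an S followed by digits, and the labels do not say what it stands for. No range of these codes holds samples of more than one group, though WT replicate 1 at 2 weeks is numbered apart from the other 3. Any batch that follows the codes could not be told apart from condition. The number of genes listed at 0 was 1414 to 3176 in the WT samples at 10 weeks and 4044 to 4423 in the other 12, and its part in the lowest values was not tested.

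Keratins as a whole made up 2.98% to 3.58% of all FPKM in WT at 2 weeks, 1.18% to 3.08% in the *Socs3* cKO of that age, 1.54% to 2.39% in the older WT and 1.62% to 3.2% in the older *Socs3* cKO. Within the keratin total, the make-up of the WT ear at 2 weeks stood apart from the other 3 groups. The inner root sheath keratins were 14.4% to 18.3% of keratin FPKM there. They were 0.037% to 0.763% in *Socs3* cKO of the same age. At 10 weeks they were 0.0209% to 0.0481% in WT and 0.015% to 0.544% in *Socs3* cKO. Hair keratins were 5.54% to 7.85% of keratin FPKM in WT at 2 weeks and at most 0.347% in any sample of the other groups. The basal and suprabasal keratins of the epidermis together filled nearly all of the remainder, and their balance varied from sample to sample. These shares do not depend on the scaling between samples.

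**Figure D1:**
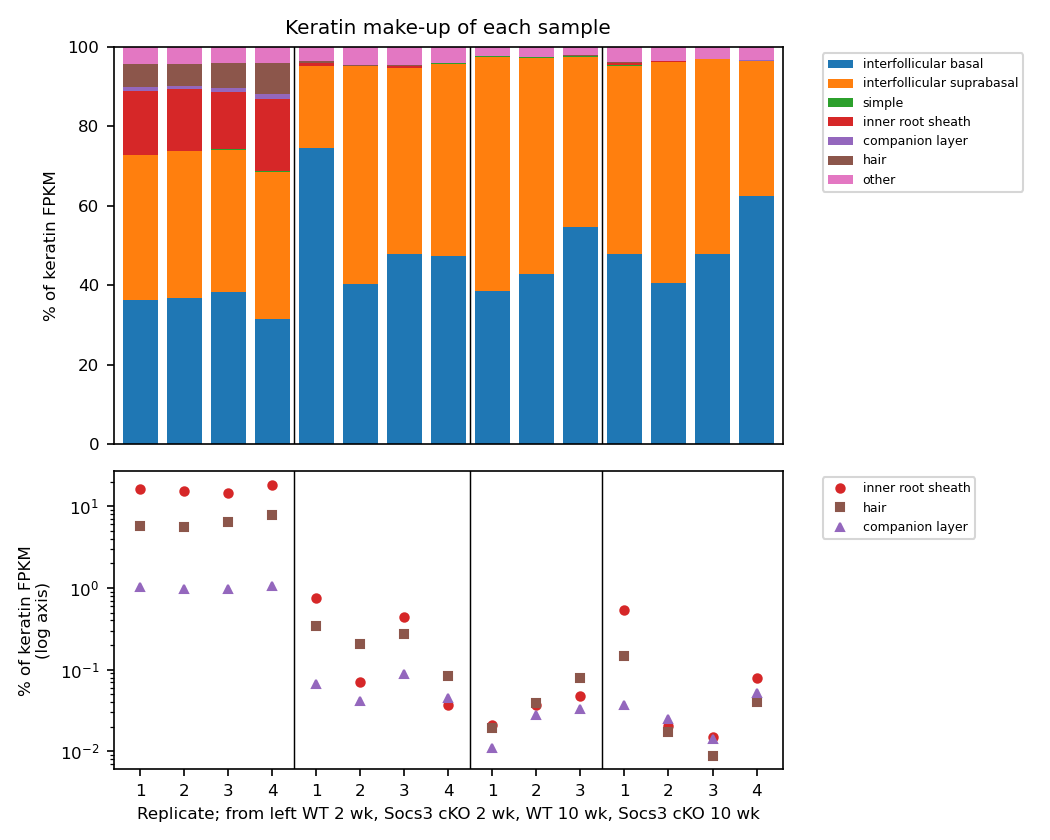
Share of each compartment in the summed keratin FPKM of every sample (upper panel, stacked bars in percent) and the 3 follicle compartments alone on a log axis (lower panel), with the groups separated by lines. Only the 4 WT samples at 2 weeks carry sheath keratins at 14.4% to 18.3% and hair keratins at 5.54% to 7.85%, and replicate 1 of Socs3 cKO at 2 weeks has the largest basal share, 74.5%.

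The first comparison asked how keratins differed between *Socs3* cKO and WT ears at 2 weeks. The keratins of the growing follicle fell together, while most keratins of the interfollicular epidermis did not pass the test and a few rose. Of the 46 members, 40 reached 1 FPKM or more in 3 or more of the 8 samples and were tested. A gene was called when the adjusted p of limma, corrected over all 13524 genes tested, was below 0.01 and the log2 fold change was at least 1 in size. By this rule 24 keratins fell, against 7.19% of all genes tested, and 5 rose, against 7.24%. The 24 were all 7 sheath keratins, *Krt75*, 13 of 14 hair keratins, *Krt7*, *Krt18* and *Krt42*. The 5 were *Krt14*, *Krt78*, *Krt4*, *Krt23* and *Krt24*. The median log2 fold change was -4.16 over the keratins tested, -1.43 over all 46 keratins and -0.21 over all genes tested, and with another scaling of the samples (median of ratios) the median of all genes was -0.01. Most follicle keratins passed the filter only through the WT samples, where they are high, so that the count of those tested is not independent of the difference.

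**Figure D2:**
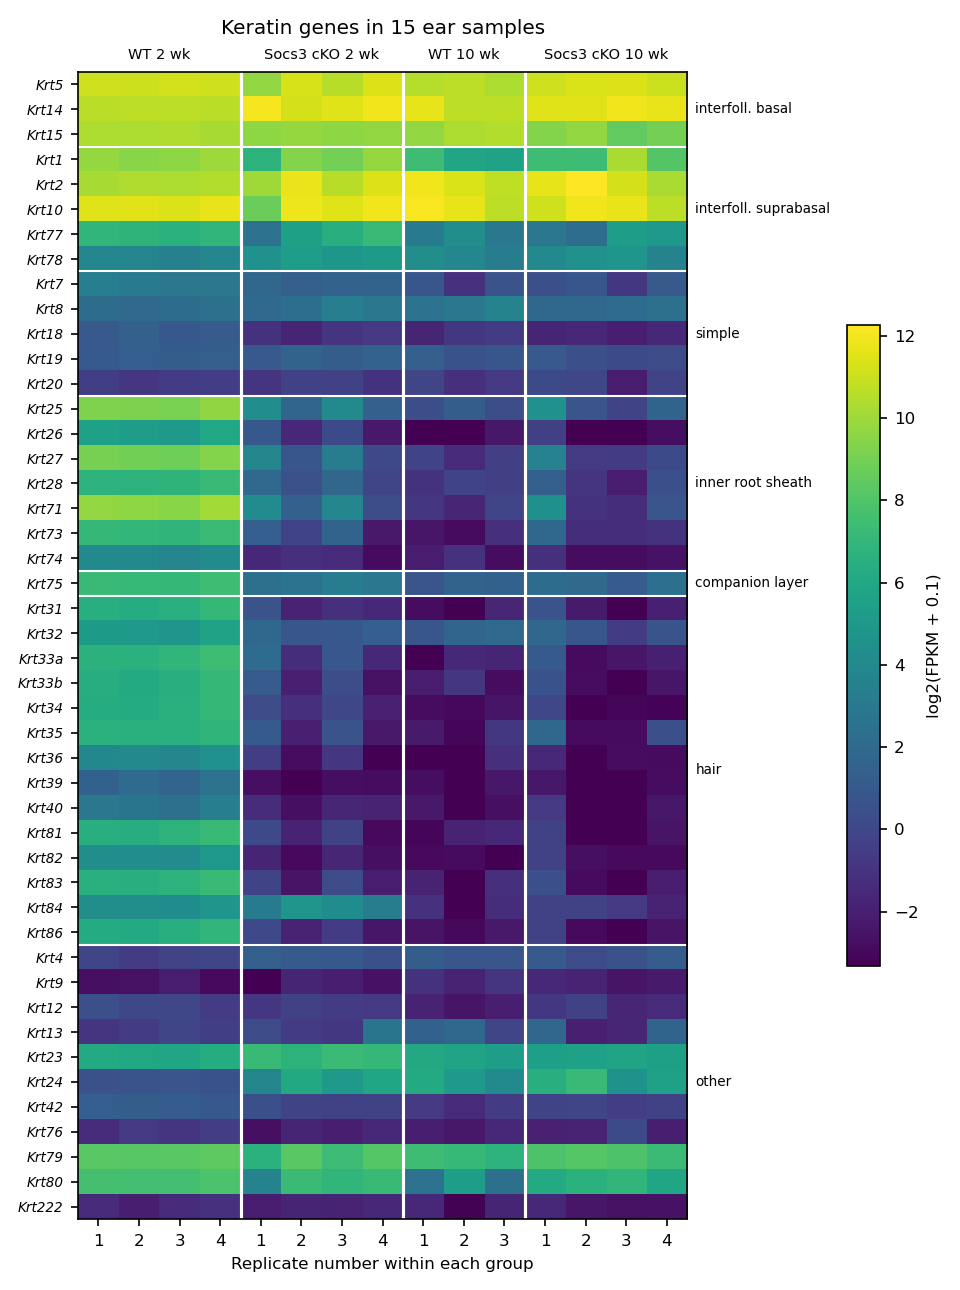
Levels of the 46 keratins, as log2(FPKM + 0.1), in the 15 samples, with genes grouped by compartment and samples by group. The sheath, companion and hair rows are bright in the 4 WT samples at 2 weeks and dark elsewhere, with Krt84 bright in both genotypes at 2 weeks, and Krt24 is dark only in WT at 2 weeks.

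Inner root sheath keratins were among the most abundant transcripts of the follicle in WT. *Krt71*, the main type II keratin of the sheath, was 841, 784, 730 and 1083 FPKM in the 4 WT samples at 2 weeks and 18.2, 2.69, 13.9 and 1.16 in *Socs3* cKO. The groups were far apart, and within *Socs3* cKO replicates 1 and 3 were several times above replicates 2 and 4. *Krt71* fell by 7.28 on the log2 scale (SE 0.79, limma adjusted p = 0.000403). Its type I partner *Krt25* was 615, 590, 561 and 808 in WT and 20, 3.3, 16.7 and 2.67 in *Socs3* cKO. *Krt27*, another type I sheath keratin, was 534, 497, 446 and 665 in WT and 14.1, 1.67, 9.26 and 0.978 in *Socs3* cKO. Both had the same order of *Socs3* cKO samples as *Krt71* and did not overlap with WT. *Krt25* fell by 6.41 (SE 0.64, limma adjusted p = 0.000291) and *Krt27* fell by 7.05 (SE 0.77, limma adjusted p = 0.000415). The other 4 sheath keratins, *Krt26*, *Krt28*, *Krt73* and *Krt74*, had log2 fold changes between -6.91 and -5.80. All 7 were called, with no overlap between the groups. By comparison, 33.2% of all genes tested had every *Socs3* cKO sample below every WT sample.

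*Krt75*, the keratin of the companion layer, which lies between the inner and the outer root sheath, was 146, 137, 135 and 171 FPKM in WT and 5.34, 6.05, 9.75 and 7.12 in *Socs3* cKO. It fell by 4.39 on the log2 scale (SE 0.20, limma adjusted p = 1.1e-05). Unlike the sheath keratins it was above 5 FPKM in each *Socs3* cKO sample at 2 weeks, and its *Socs3* cKO samples lay closer together.

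The largest falls were among the hair keratins, though some hair keratins fell less than the sheath keratins. Some *Socs3* cKO values were below the 0.1 FPKM added before the log, so the sizes depend in part on that amount. *Krt81*, a type II keratin of the hair cortex, was 92.9, 85.1, 107 and 148 FPKM in WT and 0.968, 0.195, 0.752 and 0.0329 in *Socs3* cKO. It fell by 7.93 (SE 0.62, limma adjusted p = 9.47e-05), the largest fall among the keratins. *Krt83*, a near copy of it, was 94, 90.2, 109 and 148 in WT and 0.808, 0.0745, 1.06 and 0.134 in *Socs3* cKO. *Krt33a*, a type I hair keratin, was 104, 100, 121 and 173 in WT and 4.3, 0.308, 1.77 and 0.23 in *Socs3* cKO. These *Socs3* cKO values again ran higher in replicates 1 and 3 than in 2 and 4. *Krt83* fell by 7.89 (SE 0.60, limma adjusted p = 8.96e-05) and *Krt33a* fell by 6.89 (SE 0.77, limma adjusted p = 0.000473). Over all 14 hair keratins tested the median log2 fold change was -7.09, and the 13 called lay between -7.93 and -3.93. The smallest fall among those called was that of *Krt32*, with a log2 fold change of -3.93, and its *Socs3* cKO values, 3.64, 1.74, 1.88 and 2.38 FPKM, were all above 1.

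*Krt84* was the one hair keratin that was not called at 2 weeks, and it is described here after its values were seen. It is a type II keratin of the hair type that is also known from the tongue and nail. Its values were 20.4, 20.9, 18.9 and 28.4 FPKM in WT and 9.02, 27.4, 18.7 and 9.61 in *Socs3* cKO. The groups overlapped, and replicate 2 of *Socs3* cKO was within the WT range. The log2 fold change was -0.59 (SE 0.36, limma adjusted p = 0.192). The order of its *Socs3* cKO samples, with replicate 2 highest, differed from that of the other hair keratins. On chromosome 15 *Krt84* (chr15:101355457-101363251) lies between *Krt86*, 45.0 kb before it, and *Krt82*, 8.4 kb after it, both of which fell. Its transcript shares no identical stretch of 50 bases with another gene.

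**Figure D3:**
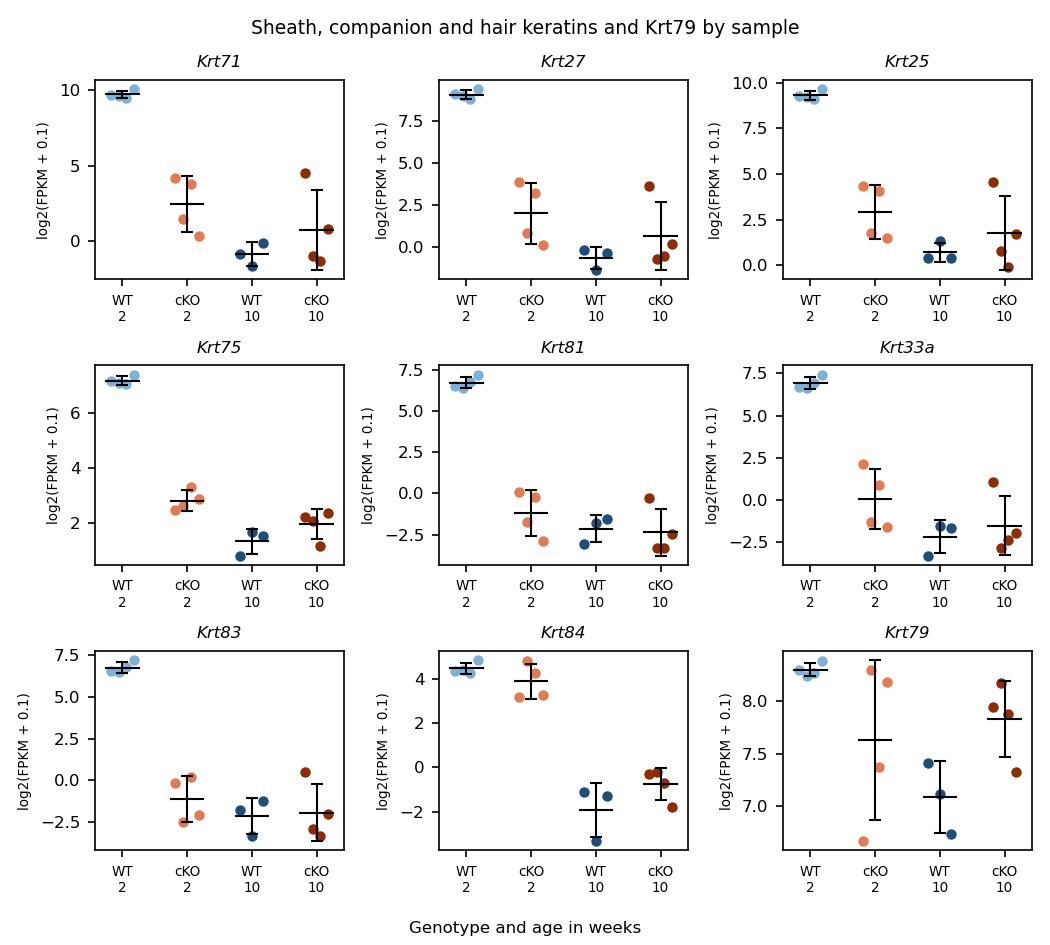
Levels of 7 sheath, companion and hair keratins, of Krt84 and of the upper follicle keratin Krt79, as log2(FPKM + 0.1) by genotype and age in weeks, each point 1 sample, with the group mean and its SD over 3 or 4 samples (axes differ between panels). WT at 2 weeks lies above the other 3 groups for the first 7 genes, while Krt84 is near the same level in both genotypes at 2 weeks and low in both at 10 weeks.

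Basal keratins of the epidermis did not move as a pair. *Krt14*, the type I basal keratin, was 1642, 1662, 1656 and 1633 FPKM in WT at 2 weeks and 4321, 2505, 2877 and 3981 in *Socs3* cKO. Every *Socs3* cKO sample was above every WT sample, as was the case for 22.9% of all genes tested at 2 weeks. *Krt14* rose by 1.02 on the log2 scale (SE 0.21, limma adjusted p = 0.0069). The call of *Krt14* was lost in 11 of 18 alternative fits, among them those that left out any single WT sample. With quantile normalization the log2 fold change was 0.27. Without *Socs3* cKO replicate 1 it was 0.89 (limma adjusted p = 0.00725), smaller than the size set for a call. *Krt5*, the type II partner of *Krt14*, was 2233, 2197, 2374 and 2270 in WT and 838, 2545, 1548 and 2735 in *Socs3* cKO. The *Socs3* cKO samples lay on both sides of WT, and the log2 fold change of *Krt5* was -0.39 (SE 0.36, limma adjusted p = 0.377), and -0.04 without replicate 1. The ratio of *Krt5* to *Krt14* within a sample is independent of the scaling, though not of a trend with gene length or GC content. This ratio was 1.32 to 1.43 in WT and 0.194 to 1.02 in *Socs3* cKO. Its lowest value came from *Socs3* cKO replicate 1, and the other 3 samples were also below WT. *Krt15*, a basal keratin also known from the bulge of the follicle where stem cells reside, was 1321.2, 1297.8, 1335.7 and 1180.0 in WT and 770, 909, 778 and 852 in *Socs3* cKO. No *Socs3* cKO sample reached the WT range, but the log2 fold change of -0.64 (SE 0.13, limma adjusted p = 0.00796) was smaller than the size set for a call.

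Suprabasal keratins were mostly not called. *Krt10*, the type I keratin of the spinous layer, was 2931, 2975, 2823 and 3395 FPKM in WT and 432, 3753, 2937 and 3898 in *Socs3* cKO. *Krt1*, its type II partner, was 901, 723, 778 and 1005 in WT and 109, 655, 510 and 901 in *Socs3* cKO. In both genes replicate 1 of *Socs3* cKO was far below all other samples of that age. *Krt10* had a log2 fold change of -0.54 (SE 0.65, limma adjusted p = 0.499), which was 0.21 without that replicate. *Krt1* had one of -0.99 (SE 0.59, limma adjusted p = 0.181), which was -0.33 without it. Their ratio, *Krt1* to *Krt10*, was 0.243 to 0.307 in WT and 0.174 to 0.252 in *Socs3* cKO, so that both were low together in replicate 1. *Krt2*, a type II keratin of the upper spinous and granular layers that is abundant in ear skin, was 1222, 1385, 1303 and 1400 in WT and 1074, 3606, 1527 and 2781 in *Socs3* cKO, with a log2 fold change of 0.60 (SE 0.36, limma adjusted p = 0.184). Without replicate 1 of *Socs3* cKO that fold change was 0.91 (SE 0.29, limma adjusted p = 0.0245), also not called. The ratio of *Krt2* to *Krt10* was 0.412 to 0.466 in WT and 0.52 to 2.49 in *Socs3* cKO, with no overlap. *Krt78* was the suprabasal keratin that rose, from 14.3, 13.3, 11.2 and 14.8 FPKM in WT to 23.7, 40.2, 30.9 and 35.7 in *Socs3* cKO. Its log2 fold change was 1.26 (SE 0.19, limma adjusted p = 0.0019). *Krt77*, a keratin of sweat ducts and suprabasal epidermis, was between 100 and 125 in WT and between 5.45 and 148 in *Socs3* cKO and was not called, with a log2 fold change of -1.43 that was -0.44 without replicate 1; it is given after its values were seen.

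**Figure D4:**
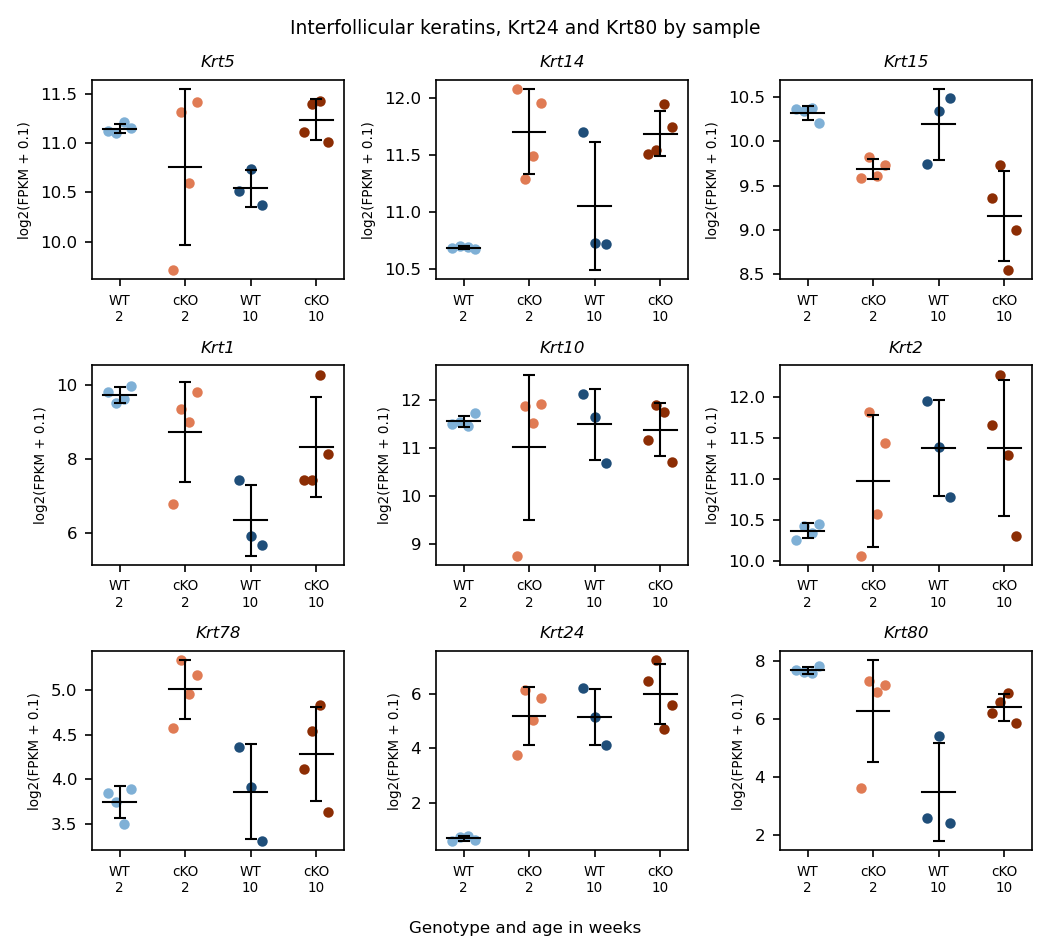
Levels of 7 interfollicular keratins and of Krt24 and Krt80, as log2(FPKM + 0.1) by genotype and age in weeks, each point 1 sample, with the group mean and its SD over 3 or 4 samples (axes differ between panels). WT samples at 2 weeks lie close together, and the lowest Krt5, Krt1, Krt10, Krt2, Krt78, Krt24 and Krt80 values of Socs3 cKO at 2 weeks all come from replicate 1, which also has the highest Krt14.

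Keratins of simple epithelia were scarce in all samples. *Krt7*, known from glands and ducts, was 10, 8.86, 7.09 and 7.27 FPKM in WT and 3.45, 2.54, 2.93 and 3.03 in *Socs3* cKO. *Krt18* was 1.96, 2.61, 1.86 and 2.15 in WT and 0.393, 0.202, 0.398 and 0.5 in *Socs3* cKO. Both were lower in every *Socs3* cKO sample. *Krt7* fell by 1.44 (SE 0.18, limma adjusted p = 0.000713) and *Krt18* fell by 2.28 (SE 0.25, limma adjusted p = 0.000439). *Krt8*, the type II partner of *Krt18*, was 4.52, 4, 4.51 and 5.23 in WT and 3.9, 4.79, 10 and 7.17 in *Socs3* cKO and was not called (log2 fold change 0.41, SE 0.29, limma adjusted p = 0.253). Without replicate 1 of *Socs3* cKO the fold change of *Krt8* was 0.62 (SE 0.23, limma adjusted p = 0.0443), also not called. The WT ratio of *Krt8* to *Krt18* was 1.53 to 2.43, whereas in *Socs3* cKO *Krt18* was below 1 FPKM in every sample, too low for a ratio. *Krt19*, a type I keratin of the outer root sheath and simple epithelia, was 2.04, 2.4, 2.36 and 2.57 in WT and 1.95, 3.03, 2.34 and 2.83 in *Socs3* cKO. These groups overlapped, with a log2 fold change of 0.10 (SE 0.19, limma adjusted p = 0.68).

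Among the remaining keratins *Krt24* rose the most of all members. *Krt24*, a type I keratin of differentiated keratinocytes, was 1.39, 1.58, 1.62 and 1.45 FPKM in WT at 2 weeks and 13.3, 70.9, 33.2 and 57.1 in *Socs3* cKO. The *Socs3* cKO values were all many times those of WT, and replicate 1 was the lowest of them. The log2 fold change was 4.51 (SE 0.47, limma adjusted p = 0.000323). *Krt24* (chr11:99141273-99146576) lies 30.3 kb from *Krt25*, which fell. *Krt23*, a type I keratin of epithelial cells, was 72.5, 63.5, 56.8 and 78.7 in WT and 150, 109, 161 and 132 in *Socs3* cKO. *Krt4*, known from oral and oesophageal epithelium, was 0.84, 0.574, 0.811 and 0.847 in WT and 2.5, 2, 1.88 and 1.32 in *Socs3* cKO. Neither gene overlapped between the groups, but 22.9% of all genes tested were likewise higher without overlap, and both calls were near the threshold. *Krt23* rose by 1.02 (SE 0.17, limma adjusted p = 0.00283) and by 0.98 without *Socs3* cKO replicate 1, and *Krt4* rose by 1.20 (SE 0.24, limma adjusted p = 0.00606) from levels below 1 FPKM.

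*Krt42*, a type I keratin known from the nail, was 2.46, 2.32, 2.27 and 1.86 FPKM in WT and 1.3, 0.81, 0.754 and 0.702 in *Socs3* cKO. It fell by 1.26 (SE 0.22, limma adjusted p = 0.00395). *Krt79*, a keratin of the upper follicle and its opening, was 315, 303, 309 and 335 in WT and 101, 315, 165 and 291 in *Socs3* cKO. Replicates 2 and 4 were near WT and replicates 1 and 3 below it, the opposite order to that of the sheath keratins, and the gene was not called (log2 fold change -0.67, SE 0.34, limma adjusted p = 0.126, and -0.35 without replicate 1). *Krt80*, a widely expressed keratin of maturing epithelial cells, was 207, 198, 192 and 231 in WT and 12.3, 161, 123 and 146 in *Socs3* cKO. All 4 *Socs3* cKO samples were below WT, with replicate 1 more than the rest, and the log2 fold change was -1.42 (SE 0.75, limma adjusted p = 0.14). Without that replicate it was -0.54 (SE 0.12, limma adjusted p = 0.00551), smaller than the size set for a call. The 6 members that did not pass the filter at 2 weeks were *Krt20*, *Krt9*, *Krt12*, *Krt13*, *Krt76* and *Krt222*, keratins of the gut, sole, cornea, mouth, palate and nervous system. *Krt13* reached 6.48 FPKM in 1 *Socs3* cKO sample, and the others were at or below 1.3 in all 8 samples.

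**Figure D5:**
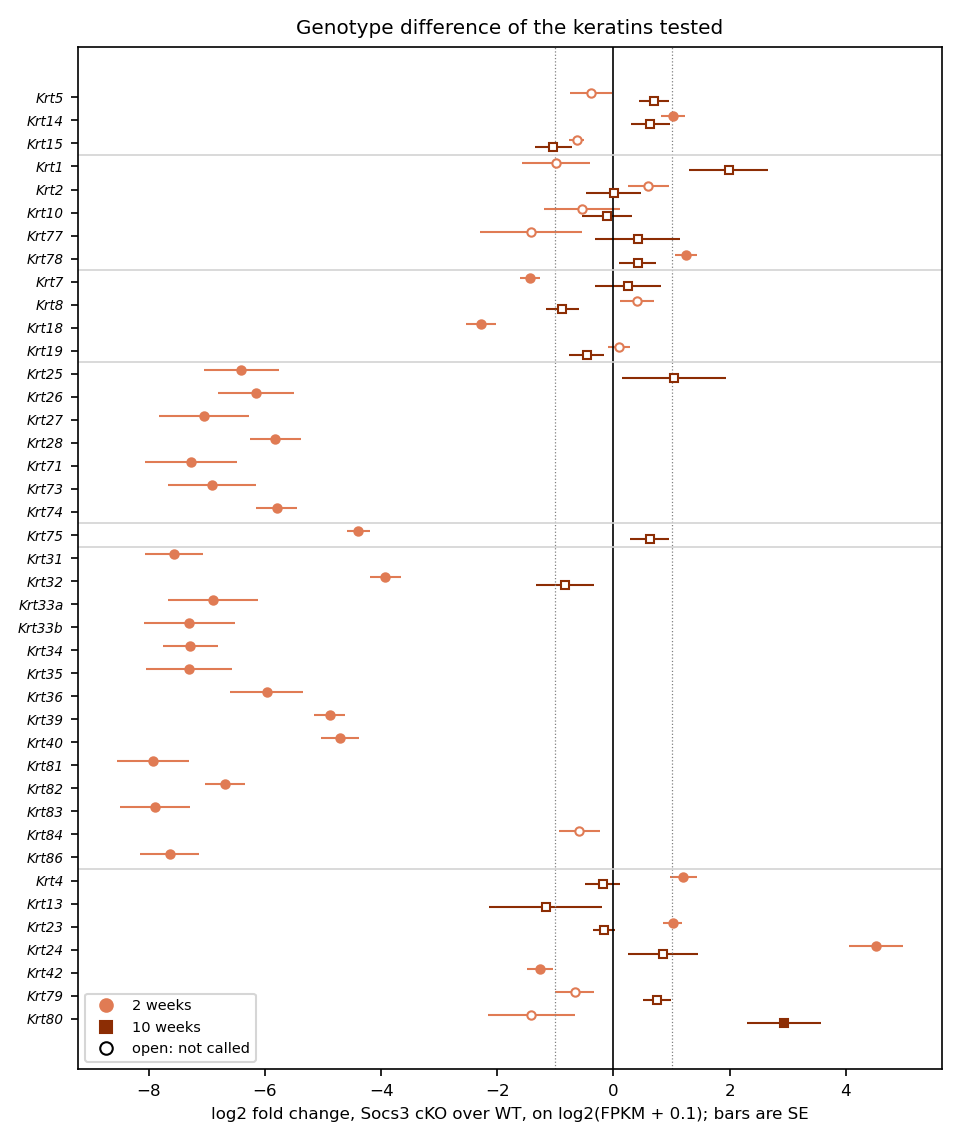
Genotype difference of each keratin tested, as the log2 fold change of Socs3 cKO over WT at 2 weeks (circles) and 10 weeks (squares), with SE as bars, filled where called and open where not, with dotted lines at -1 and 1. Sheath, companion and hair keratins lie between -7.93 and -3.93 at 2 weeks apart from Krt84, and at 10 weeks the only filled point is Krt80.

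The second comparison asked how keratins differed between the genotypes at 10 weeks. Here 1 keratin, *Krt80*, was called higher and 0 lower, of 20 members tested, against 12.5% and 2.43% of all 13105 genes tested by limma. Without an adjustment 6 keratins had p below 0.05, 4 of them higher and 2 lower, and without the expression filter 0 were called, the smallest adjusted p being 0.0408. The median log2 fold change was 0.33 over the keratins tested and 0.31 over all genes tested. With the samples rescaled by the median of ratios, the median of all genes was 0.06, and higher genes made up 62.93% of all calls instead of 83.7%. *Krt80* was 5.84, 42.9 and 5.24 FPKM in WT and 74.2, 97.4, 121 and 58.8 in *Socs3* cKO. Every *Socs3* cKO sample was above every WT sample, though WT replicate 2 was several times the other WT samples. The log2 fold change was 2.94 (SE 0.63, limma adjusted p = 0.00685). Its call was lost without the filter (limma adjusted p = 0.0408) and without WT replicate 1 (log2 fold change 2.48) or WT replicate 3 (2.41), as well as without any one of the *Socs3* cKO samples.

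Sheath and hair keratins were near the lower end of the scale in both genotypes at 10 weeks. *Krt71* was 0.462, 0.216 and 0.842 FPKM in WT and 22.7, 0.397, 0.306 and 1.65 in *Socs3* cKO. *Krt27* was 0.773, 0.283 and 0.69 in WT and 12, 0.516, 0.588 and 1.01 in *Socs3* cKO. *Krt25*, the one sheath keratin that passed the filter, was 1.22, 2.36 and 1.23 in WT and 23.7, 1.63, 0.834 and 3.15 in *Socs3* cKO. In each case replicate 1 of *Socs3* cKO was well above the other 6 samples, which overlapped, and *Krt25* was not called (log2 fold change 1.04, SE 0.90, limma adjusted p = 0.376). That value was 0.10 without this replicate and ranged up to 1.65 with another sample left out. The same sample was the highest of the 7 for 10 of the 14 hair keratins, *Krt32*, *Krt36*, *Krt39* and *Krt84* being the exceptions. *Krt33a* was 0, 0.24 and 0.208 in WT and 1.99, 0.0379, 0.092 and 0.159 in *Socs3* cKO. *Krt83* was 0.187, 0 and 0.325 in WT and 1.31, 0.0344, 0 and 0.142 in *Socs3* cKO. *Krt81* was 0.0184, 0.192 and 0.242 in WT and 0.716, 0, 0 and 0.0799 in *Socs3* cKO. Values of 0 here are genes listed at 0. *Krt75* was 1.62, 3.05 and 2.71 in WT and 4.49, 4.07, 2.09 and 4.98 in *Socs3* cKO, overlapping groups with a log2 fold change of 0.62 (SE 0.34, limma adjusted p = 0.17). Of the 14 hair keratins only *Krt32* passed the filter at 10 weeks. In the fit without a filter none of the 26 members it had left out was called, with *Krt73* (log2 fold change 1.73, SE 0.933) and *Krt71* (1.61, SE 1.49) at the upper end.

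Basal and suprabasal keratins at 10 weeks were abundant in both genotypes. *Krt5* was 1459, 1712 and 1327 FPKM in WT and 2216, 2700, 2749 and 2060 in *Socs3* cKO. *Krt14* was 3329, 1699 and 1690 in WT and 2920, 2995, 3939 and 3438 in *Socs3* cKO. *Krt15* was 855, 1302 and 1442 in WT and 657, 853, 372 and 512 in *Socs3* cKO. The groups did not overlap for *Krt5*, which was higher in *Socs3* cKO, nor for *Krt15*, which was lower, though by a narrow margin. None of the 3 was called: the log2 fold changes were 0.69 (SE 0.26, limma adjusted p = 0.058) for *Krt5*, 0.64 (SE 0.33, limma adjusted p = 0.151) for *Krt14* and -1.03 (SE 0.32, limma adjusted p = 0.0302) for *Krt15*. The share of all genes whose groups did not overlap was 31.2% for higher and 11.1% for lower. *Krt15* was called when all 4 groups entered one fit (limma adjusted p = 0.00585). The *Krt5* to *Krt14* ratio was 0.438 to 1.01 in WT and 0.599 to 0.901 in *Socs3* cKO, so that the difference seen at 2 weeks was not seen here.

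*Krt1* was 172, 59.9 and 50.5 FPKM in WT at 10 weeks and 173, 171, 1242 and 279 in *Socs3* cKO. One *Socs3* cKO sample was several times the others, and the lowest of them was level with the highest WT sample. Its log2 fold change of 1.98 (SE 0.68, limma adjusted p = 0.0431) was not called. The *Krt1* to *Krt10* ratio was 0.0185 to 0.0381 in WT and 0.0444 to 0.359 in *Socs3* cKO, without overlap. *Krt10* was 4503, 3235 and 1657 in WT and 2303, 3850, 3454 and 1675 in *Socs3* cKO. *Krt2* was 3952, 2672 and 1764 in WT and 3234, 4930, 2504 and 1263 in *Socs3* cKO. Both overlapped widely, with log2 fold changes of -0.11 (SE 0.43) and 0.01 (SE 0.47). *Krt78* was 20.5, 15 and 9.81 in WT and 17.3, 23.2, 28.4 and 12.3 in *Socs3* cKO and was not called either.

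Among the simple keratins *Krt8* was 5.46, 7.51 and 12.5 FPKM in WT at 10 weeks and 3.82, 3.8, 4.33 and 5.38 in *Socs3* cKO, so that all *Socs3* cKO samples were lower, without a call (log2 fold change -0.88, SE 0.28, limma adjusted p = 0.0341). *Krt7* was 1.67, 0.358 and 1.51 in WT and 1.27, 1.7, 0.48 and 1.91 in *Socs3* cKO. *Krt18* was 0.203, 0.473 and 0.565 in WT and 0.203, 0.234, 0.151 and 0.235 in *Socs3* cKO. These low values overlapped between the genotypes. *Krt19* was 2.49, 1.45 and 1.68 in WT and 1.92, 1.29, 1.03 and 1.11 in *Socs3* cKO. *Krt24* was 73.6, 35.1 and 17.2 in WT and 89.8, 152, 26 and 48.5 in *Socs3* cKO. *Krt23* was 67.2, 55.7 and 41.5 in WT and 43.6, 47.8, 54.5 and 46.2 in *Socs3* cKO. Both overlapped, *Krt24* at levels near those of *Socs3* cKO at 2 weeks. *Krt4* was 2.33, 1.65 and 1.62 in WT and 1.98, 1.13, 1.34 and 2.22 in *Socs3* cKO. *Krt42* was 0.498, 0.267 and 0.595 in WT and 0.813, 0.874, 0.616 and 0.7 in *Socs3* cKO. *Krt79* was 170, 138 and 106 in WT and 246, 289, 236 and 160 in *Socs3* cKO, overlapping through its lowest *Socs3* cKO sample and not called (log2 fold change 0.75, SE 0.25, limma adjusted p = 0.0375).

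The third comparison was of the genotype difference at 10 weeks with that at 2 weeks, an interaction tested with all 4 groups in one fit and called at an adjusted p below 0.01 with no minimum size. Of 41 keratins tested, 24 had a higher genotype difference at 10 weeks and 3 a lower one, against 18.5% and 7.05% of all 13937 genes tested. The 24 included all 7 sheath keratins, with interaction values between 5.47 and 8.89 on the log2 scale, *Krt75* (5.01, SE 0.40) and the 13 hair keratins that had fallen at 2 weeks. These genes differed by a large amount at 2 weeks and were low in both genotypes at 10 weeks. Many of them passed the filter only through WT at 2 weeks, so their count is not independent of the difference at that age. *Krt18* (1.60), *Krt42* (1.93) and *Krt80* (4.35) were the others that were higher, and the calls of *Krt18* and *Krt80* were lost in 14 and 10 of 24 alternatives. The separate log2 fold changes of *Krt80* were -1.42 at 2 weeks, without a call, and 2.94 at 10 weeks. The 3 lower ones were *Krt4* (-1.39, SE 0.38), *Krt23* (-1.19, SE 0.26) and *Krt24* (-3.65, SE 0.85). Without WT replicate 1 of 10 weeks the count of lower keratins was 0. The median over all genes tested was 0.55, and 0.10 with median-of-ratios scaling, under which 5 keratins were lower and higher genes made up 52.05% of all calls instead of 72.43%. The interaction of *Krt84* was 1.74 (SE 0.73, limma adjusted p = 0.0608).

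The last comparison was of age within each genotype, and it shares samples with the comparisons above. In WT, 29 keratins fell from 2 to 10 weeks and 2 rose, of 41 tested, against 19.4% and 6.18% of all genes tested. Many follicle keratins passed the filter only through WT at 2 weeks, so the count of falls is not independent of the difference. Those that fell were all 7 sheath keratins, *Krt75* and all 14 hair keratins, *Krt84* included, together with *Krt1*, *Krt77*, *Krt7*, *Krt18*, *Krt42*, *Krt79* and *Krt80*. *Krt71* fell by 10.59 on the log2 scale (SE 1.16, limma adjusted p = 1.13e-05) and *Krt81* fell by 8.86 (SE 0.76, limma adjusted p = 1.27e-06). *Krt1* fell by 3.39 (SE 0.73, limma adjusted p = 0.00193), while *Krt10*, its partner, had a change of -0.07 (SE 0.62, limma adjusted p = 0.935). *Krt24* rose by 4.47 (SE 0.62, limma adjusted p = 8.4e-05) and *Krt4* rose by 1.18 (SE 0.28, limma adjusted p = 0.00347). The median of all genes tested was -0.44 in this contrast and -0.05 with median-of-ratios scaling, under which the part of all calls that was higher went from 24.19% to 47.06%. Among the keratins tested, the groups did not overlap for 30 that were lower at 10 weeks, against 49.5% of all genes tested, and for 6 that were higher, against 17.3%.

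In *Socs3* cKO, 0 keratins rose with age and 2 fell by limma, of 41 tested, against 2.01% and 1.53% of all genes tested. The pair that fell was *Krt84* and *Krt23*. *Krt84* went from 9.02, 27.4, 18.7 and 9.61 FPKM at 2 weeks to 0.717, 0.756, 0.51 and 0.19 at 10 weeks, and fell by 4.62 (SE 0.49, limma adjusted p = 4.19e-05). In WT it was 0.359, 0 and 0.311 at 10 weeks, so that this gene was high at 2 weeks and low at 10 weeks in both genotypes. *Krt23* fell by 1.51 (SE 0.17, limma adjusted p = 8.59e-05). The sheath keratins had log2 changes between -1.81 and -0.56 with age in *Socs3* cKO and the other hair keratins between -1.66 and 0.03, none of them called. Groups that did not overlap were seen in 5 keratins tested that were lower at 10 weeks, against 6.79% of all genes tested, and in 0 that were higher, against 7.71%.

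Side by side, and with the WT samples at 2 weeks shared between them, the changes of *Socs3* cKO against WT at 2 weeks and of WT from 2 to 10 weeks were -7.28 and -10.59 for *Krt71*, -4.39 and -5.89 for *Krt75*, -7.93 and -8.86 for *Krt81* and 4.51 and 4.47 for *Krt24*. They were -0.59 and -6.37 for *Krt84*, -0.99 and -3.39 for *Krt1* and 1.02 and 0.36 for *Krt14*.

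Within the sheath and within the hair keratins, the ratios of the pairs chosen differed little between the WT samples at 2 weeks. The ratio of *Krt71* to *Krt25* was 1.3 to 1.37 in the 4 WT samples and 0.434 to 0.908 in *Socs3* cKO of that age. That of *Krt71* to *Krt27* was 1.58 to 1.63 in WT and 1.28 to 1.61 in the 3 *Socs3* cKO samples where both were at least 1 FPKM. Among hair keratins, *Krt81* to *Krt31* was 1.07 to 1.11 and *Krt86* to *Krt34* 0.92 to 0.957 in WT, and neither could be given elsewhere because at least 1 gene of each pair was below 1 FPKM. These hair keratins are among the near copies whose values are uncertain in how they divide. *Krt85*, *Krt72*, *Krt37* and *Krt38* were not analysed here.

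Proteins that bind or cross-link keratins were followed in a list of 14 genes. At 2 weeks 3 rose and 3 fell, against 7.24% and 7.19% of all genes. *Tchh*, trichohyalin, which embeds the filaments of the inner root sheath, was 388, 342, 264 and 438 FPKM in WT and 5.61, 2.15, 5.58 and 1.27 in *Socs3* cKO, and fell by 6.80 (SE 0.46, limma adjusted p = 6.16e-05). *Padi3* and *Padi1*, enzymes that convert arginine to citrulline in trichohyalin and filaggrin, fell too, with log2 fold changes of -7.50 and -4.45. The genes that rose encode proteins that aggregate filaments or build the cornified envelope in the upper epidermis: *Hrnr* rose by 3.36 (SE 0.19, limma adjusted p = 2.88e-05), *Flg2* by 1.65 and *Rptn* by 1.15. The desmosomal and plakin genes *Dsp*, *Pkp1*, *Pkp3*, *Ppl*, *Evpl* and *Dst* were not called at 2 weeks. At 10 weeks 1 of the 12 tested rose, *Dst* by 2.04 (SE 0.26, limma adjusted p = 0.000713), and 0 fell, against 12.5% and 2.43% of all genes.

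Of 12 transcription factors known for keratin genes in hair, sheath or epidermis, 6 fell at 2 weeks and 0 rose, against the 7.19% and 7.24% of all genes. *Hoxc13*, which controls hair keratin genes, was 24.6, 22.1, 22.9 and 28 FPKM in WT and 0.813, 2.03, 1.92 and 1.49 in *Socs3* cKO, and fell by 3.95 (SE 0.27, limma adjusted p = 6.47e-05). *Dlx3*, *Foxn1*, *Msx2*, *Lef1* and *Cux1*, factors of the hair matrix and its differentiating layers, also fell, with log2 fold changes of -3.42, -3.17, -3.12, -2.81 and -1.56. *Gata3*, a factor of the inner root sheath and the epidermis, was 32.4, 33, 33.8 and 36.3 in WT and 7.17, 23.4, 10.4 and 16.1 in *Socs3* cKO, a log2 fold change of -1.38 (SE 0.33, limma adjusted p = 0.0119) that was not called. *Trp63*, a factor of basal keratinocytes, was between 48.2 and 60.6 in WT and between 40.2 and 74.3 in *Socs3* cKO, with a log2 fold change of -0.03 (SE 0.20). At 10 weeks, of 11 tested, *Grhl3* rose by 1.85 and *Trps1* by 1.59, and *Gata3* fell by 1.77 (SE 0.32, limma adjusted p = 0.00306). Of all genes tested at that age, 12.5% rose and 2.43% fell. In WT 8 of the 12 fell from 2 to 10 weeks, against 19.4% of all genes. In *Socs3* cKO 0 of the 12 were called with age, where only 2.01% of all genes rose and 1.53% fell.

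Markers of other cell types moved with the groups, and their part in the keratin differences was not tested. Beside the counts below, 7.24% of all genes tested were called higher and 7.19% lower at 2 weeks. At 10 weeks these shares were 12.5% and 2.43%, and the median log2 fold change of all genes was 0.31. At 2 weeks the summed level of the 7 skeletal muscle markers was 623 to 947 FPKM in WT and 1571 to 2895 in *Socs3* cKO, with 5 of the 7 higher. The 5 cartilage markers summed to 148 to 251 and 13.7 to 85.7, with 2 lower and *Matn1* listed at 0 in all 8 samples. The 5 fibroblast markers summed to 8228 to 9862 and 3549 to 5171, with 1 higher and 2 lower. The 10 non-keratin keratinocyte markers summed to 1733 to 1872 in WT and 2440 to 2994 in *Socs3* cKO at 2 weeks, with 2 of the 10, *Dsc3* and *Perp*, higher and 0 lower by limma. The other members were not all on that side: 6 of the 10 had a log2 fold change below 0, among them *Itgb4* (-1.43, limma adjusted p = 0.114) and *Cdh1* (-1.26, limma adjusted p = 0.036). The 4 markers of the sebaceous gland, which opens into the follicle, summed to 84 to 99.6 and 175 to 299, with 2 higher. Melanocyte markers (5 genes) summed to 156 to 212 and 131 to 333, with none called. At 10 weeks leukocyte markers (6 genes) summed to 50.2 to 69.6 in WT and 124 to 146 in *Socs3* cKO, with 4 higher. Endothelial markers (4 genes) summed to 10.4 to 14.5 in WT and 27.9 to 38.8 in *Socs3* cKO at 10 weeks, with 3 higher, and keratinocyte markers to 1381 to 2509 and 2596 to 3277, with 4 of 10 higher. Skeletal muscle markers summed at 10 weeks to 707 to 1215 in WT and 359 to 657 in *Socs3* cKO, with 1 of 7 lower. Fibroblast markers summed at that age to 3166 to 5257 and 4835 to 8844, and cartilage markers to 35.7 to 60.3 and 51.1 to 115. Endothelial markers at 2 weeks summed to 51.9 to 59.2 in WT and 39.2 to 48.1 in *Socs3* cKO, with none called. Adipocyte markers (4 genes) summed to 13.9 to 16.6 and 14.6 to 93.1 at 2 weeks, and to 23.1 to 43.2 and 43.6 to 96.8 at 10 weeks.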

How the data were processed

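RNA was taken with TRIzol from ears, made into TruSeq RNA v2 libraries, which do not keep the strand, and read as single ends of 50 bases on a HiSeq. The authors' processing notes name TopHat2 2.1.0, Cufflinks (version not given in the sources used here) and build mm9, and the deposited value is 1 FPKM per gene and sample for 21110 genes. The study tested with a model for read counts. FPKM are not counts, so log2(FPKM + 0.1) was tested here with limma 3.58.1 in R 4.3.3, letting the prior variance follow the mean level. The fold changes are on this scale, which understates changes of low genes. Genes with at least 1 FPKM in 3 samples or more entered a fit, and p-values (2-sided) were adjusted by Benjamini-Hochberg over all of them. The thresholds were an adjusted p below 0.01 and a log2 fold change of 1 in size, except for the interaction, which had no minimum size. Each genotype comparison used its own 2 groups, and the interaction and age comparisons used all 4. Samples were grouped by their labels. The study's methods count mice and list more WT mice at each age than the samples used here; the others were not analysed here. The labels do not tie a sample to an animal, so the p-values measure the spread between these samples, part of which may be technical. The number of reads behind a value is unknown, so no counting interval is given.

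The members and lists were chosen with earlier results of these data known. Values in every sample are given for the 3 most abundant keratins of each compartment, for the called keratins with the largest rise and fall in each compartment, and for every called keratin outside the follicle compartments. Of 81 genes in the lists, 76 were in the files. Pair ratios are given where both genes were at least 1 FPKM. Python 3.11.15 with pandas 2.3.3, numpy 2.4.6 and matplotlib 3.10.9 was used for summaries and plots. In data simulated with the spread of WT at 2 weeks, whose samples lay closest together, for 3 against 4 samples and 12790 genes, 197 of the 198 changed genes tested were recovered, and 0 unchanged genes were called. The changes put in were all larger than the size set for a call, and the genes reached 1 FPKM in every WT sample at 2 weeks. The recovery therefore does not carry over to smaller changes, to low genes or to the wider spread of the other groups. The alternatives were pseudocounts of 1 and 0.01, other filters, median-of-ratios and quantile scaling, a replicate block, a constant prior variance, removal of a length and GC trend (known for 92.1% of genes), 1 fit of all groups, and leaving out each sample.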

Additional observations from a re-analysis of the deposited data

Results flagged for a closer look

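In 3 of the 75 sets of 4 samples checked over the 25 keratins described, 1 sample lay so far from the other 3 that its gap, as a share of the range, exceeded Dixon's critical value at the 95% level, on the scale of log2(FPKM + 0.1). Chance marks about 1 in 20 such sets. *Krt10* was 432 FPKM and *Krt80* was 12.3 FPKM in *Socs3* cKO replicate 1 at 2 weeks, both the lowest of their group. *Krt4* was 0.574 FPKM in WT replicate 2 at 2 weeks. On the FPKM scale without a log, tried after the data were seen, 8 sets were marked, of which only that of *Krt4* was also marked on the log scale. The others were *Krt1* in *Socs3* cKO replicate 3 at 10 weeks, 1242 FPKM, and 6 sheath and hair keratins in replicate 1 of that group.

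The genotype difference itself differed between 2 and 10 weeks, by the interaction test of limma, in 13 of these 25 keratins. Of all genes tested, 18.5% had a higher and 7.05% a lower interaction. The 25 were chosen in part by calls in the genotype comparisons that make up the interaction. Their count is therefore not independent of that choice. On the log2 scale the difference at 10 weeks minus that at 2 weeks was 8.89 for *Krt71*, 8.32 for *Krt27* and 7.45 for *Krt25* of the sheath and 5.01 for *Krt75* of the companion layer. For the hair keratins it was 8.07 for *Krt83*, 7.71 for *Krt81* and 7.55 for *Krt33a*. It was 4.35 for *Krt80*, 1.93 for *Krt42* and 1.60 for *Krt18*. It was negative for *Krt24* (-3.65), *Krt4* (-1.39) and *Krt23* (-1.19).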

How the results depend on the processing

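The 24 keratins that fell at 2 weeks were 22 to 24 under every alternative, the 24 with a higher interaction 21 to 25, the 29 that fell with age in WT 26 to 29 and the 2 that fell in *Socs3* cKO 2 or 3. Every named sheath, companion and hair keratin kept its call at 2 weeks in all 18 alternatives, and so did *Krt24*. The calls near the threshold did not: those of *Krt14* and *Krt42* were each lost in 11 of 18 alternatives, those of *Krt4* and *Krt23* in 8, that of *Krt7* in 3, that of *Krt78* in 1, and that of *Krt80* at 10 weeks in 10 of 17. Interaction calls were lost in 16 of 24 alternatives for *Krt4*, 14 for *Krt18* and 10 for *Krt80*, and the fall of *Krt79* with age in WT in 10 of 17. The causes were not tested.

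The 5 keratins that rose at 2 weeks became 3 without a filter, 3 with quantile normalization and 1 with a replicate block, and 2 to 5 with a sample left out. Replicate numbers did not pair the samples: same-numbered samples deviated from their group means with correlations between -0.06 and 0.06 at 2 weeks and between -0.20 and 0.04 at 10 weeks. With the replicate block 400 genes of all rose and 351 fell at 2 weeks, instead of 979 and 972, with 23 keratins among those that fell. The 1 that rose at 10 weeks became 0 without a filter, 0 with a constant prior variance and 0 in the fit of all 4 groups, which called 1 lower (*Krt15*), and 0 to 1 with a sample left out. With quantile normalization *Krt80* was not called at 10 weeks (2.61) and *Krt14* was (1.04), and *Krt15* was called lower at 2 weeks (-1.55). The 3 with a lower interaction became 6 with quantile normalization and 5 with median-of-ratios scaling, and 0 to 3 with a sample left out. The 2 that rose with age in WT became 1 with a pseudocount of 1, and 1 to 2 with a sample left out.

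Direction changed only in log2 fold changes that were not called. At 2 weeks *Krt5* was 0.16 with the length and GC trend removed, *Krt2* was -0.25 with quantile normalization, and *Krt10* ranged from -0.85 to 0.21 with a sample left out. At 10 weeks *Krt2* was -0.25 with median-of-ratios scaling and ranged from -0.29 to 0.37 with a sample left out. *Krt10* was 0.14 with quantile normalization, 0.11 with the replicate block and 0.08 with the length and GC trend removed, and ranged from -0.51 to 0.21 with a sample left out. *Krt7* was -0.02 with quantile normalization and ranged from -0.37 to 0.64 with a sample left out, and *Krt4* was 0.03 and *Krt23* 0.12 with the length and GC trend removed.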
